A study of Mus musculus with 4 samples.

Results

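The plasminogen activator genes Plau and Plat, the receptor gene Plaur and the serpin genes Serpine2 and Serpinb2 were followed in cultured mouse pancreatic fibroblasts. The genes were chosen by symbol from the deposited tables. All 5 had 1 row each among the 38921 gene intervals, and all 5 passed the filter on low counts that left 23046 intervals for testing. The RNA came from 4 libraries, 2 labelled KPC and 2 labelled wild type, both groups with pancreas as tissue and a mixed strain. The name KPC usually stands for mice that develop pancreatic cancer because Cre recombinase, driven from Pdx1 in the pancreatic epithelium, activates engineered alleles that include a mutant Trp53; the labels do not spell it out. The fibroblasts of both groups were isolated by a gravity separation method and grown in medium with serum. The comparison asked how gene expression differs between fibroblasts of the KPC pancreas and those of the wild type pancreas.

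Plasminogen activators are serine proteases that cut the inactive precursor plasminogen into plasmin, a protease that degrades fibrin and matrix proteins and activates other proteases. Plau encodes urokinase, which acts at the cell surface when it is held by the receptor that Plaur encodes. Plat encodes tissue-type plasminogen activator, which binds fibrin. Serpins act as suicide substrates that trap a protease in a stable complex. Serpine2 encodes protease nexin 1, a secreted inhibitor of thrombin and of both activators, and Serpinb2 encodes plasminogen activator inhibitor 2, which is largely kept inside the cell. In pancreatic tumours the system is known from both the cancer cells and the stroma around them.

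Totals of the deposited counts ran from 22302141 to 68312367 per library, lowest in wild type replicate 2. Levels are given as CPM, counts scaled to library size, after TMM scaling. The 2 fibroblast markers with the most counts were high in every library. Col1a1, which encodes a chain of fibrillar collagen, stood at 4802 and 5245 CPM in KPC and at 4088 and 4716 CPM in wild type. The smooth muscle actin gene Acta2 stood at 4109 and 4214 CPM in KPC and at 3034 and 5253 CPM in wild type. Other fibroblast markers went both ways and are given below. Markers of other cells were present and are given below. Replicates are called biological in the labels, which do not tell animals or cultures apart. The p-values therefore cover the spread among these 4 libraries, which may be technical.

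Upstream sequence from RefSeq was on hand for 3 of the 5 genes, Plaur, Serpine2 and Serpinb2. The 100 bases before the transcript start are shown because the genes are set beside AP-1 and ETS transcription factors below. ETS motifs were not searched, and no window of Plau was on hand. All are from build GRCm38.p6 and are written 5′ to 3′ on the gene's strand, with capitals marking the 3 motifs searched on both strands: the AP-1 site (TGACTCA or TGAGTCA), the TATA box (TATAAA or TTTATA) and the GC box (GGGCGG or CCGCCC).
Plaur, chr7:24462383-24462482, plus strand: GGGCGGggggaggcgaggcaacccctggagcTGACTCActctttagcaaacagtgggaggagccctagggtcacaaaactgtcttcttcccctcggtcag
Serpine2, chr1:79858697-79858796, minus strand: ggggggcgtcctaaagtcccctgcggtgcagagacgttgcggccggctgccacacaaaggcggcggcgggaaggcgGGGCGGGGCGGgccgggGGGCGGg
Serpinb2, chr1:107511323-107511422, plus strand: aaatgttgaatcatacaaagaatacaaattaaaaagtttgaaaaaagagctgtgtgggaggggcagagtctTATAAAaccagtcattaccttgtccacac
The Plaur window held 1 AP-1 match, which began 69 bases before the start, and 1 GC box. Serpine2 had 3 GC boxes, the first 2 of which overlap, and Serpinb2 had 1 TATA box, beginning 29 bases before the start. Among 32851 promoter windows of 100 bases in the same RefSeq table, 1.88% held the AP-1 letters, 5.56% the TATA letters and 24.7% the GC box letters. A match describes the letters in the window and was not tested as a binding site.

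Both activator genes and the receptor gene lay higher in each KPC library than in any wild type library, whereas the serpin genes overlapped between the groups. The fitted folds of KPC over wild type were 2.36 for Plau and 2.21 for Plat. None of the 5 passed edgeR's quasi-likelihood test after Benjamini-Hochberg adjustment over all 23046 rows, where 0% of rows passed in each direction and the lowest adjusted p of any row was 0.211. The edgeR test took 2 of the 5 at an unadjusted p under 0.05, Plau and Plat, both higher. Over all rows it took 4.73% as higher and 3.94% as lower. The 3 genes without overlap compare with 20.6% of all tested rows that were higher in both KPC libraries and 20.5% that were lower in both. The count of 2 was 1 without KPC 2, where 3.14% of all rows were taken as higher and 2.2% as lower, and 4 without wild type 2, where 9.28% were taken as higher and 7.48% as lower. It was 2 without KPC 1 (2.69% of rows higher and 1.28% lower) and 2 without wild type 1 (4.67% higher and 3.66% lower).

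**Figure D1:**
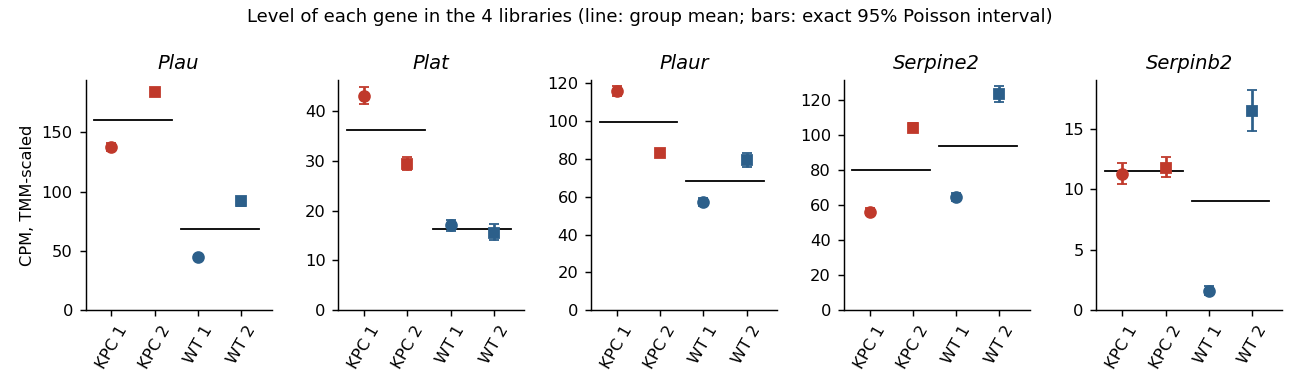
Level of each gene in CPM after TMM scaling, 1 panel a gene, with a linear axis from 0; red points are the KPC libraries, blue points the wild type (WT) libraries, bars the exact 95% Poisson interval of the count (counting error only) and lines the group means. Plau, Plat and Plaur lie higher in both KPC libraries, Serpine2 overlaps, and Serpinb2 is at 1.60 CPM in wild type 1 and at 11.3 CPM or more elsewhere.

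Plau (chromosome 14, 20836662 to 20843388 in the mm10 build, protein-coding) stood at 138 CPM in KPC 1 and 184 CPM in KPC 2, against 44.7 CPM in wild type 1 and 91.7 CPM in wild type 2. The libraries of a group differed, and the nearest pair, KPC 1 and wild type 2, still lay apart. The means were 161 ± 32.6 CPM in KPC and 68.2 ± 33.2 CPM in wild type (SD, n = 2 each). The log2 fold change was 1.24 ± 0.40 (SE), with a 95% interval from 0.20 to 2.27 and an adjusted edgeR p of 0.537. Wild type 1, the lowest library, carried much of the difference: without wild type 1 the log2 fold change was 0.81, and without wild type 2 it was 1.85. In those fits the lone library of a group is assumed to vary like the other group.

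Plat (chromosome 8, 22757744 to 22782847, protein-coding) was the member whose wild type libraries lay closest together. It stood at 43.0 and 29.3 CPM in KPC, against 17.0 and 15.6 CPM in wild type, and the lower KPC library was above both wild type libraries. Means were 36.2 ± 9.64 CPM in KPC and 16.3 ± 1.00 CPM in wild type (SD, n = 2 each). Counting error was small beside this gap: the exact 95% Poisson interval ran from 28.1 to 30.7 CPM in KPC 2 and from 15.9 to 18.2 CPM in wild type 1. The log2 fold change was 1.15 ± 0.25 (SE), with a 95% interval from 0.50 to 1.79 and an adjusted edgeR p of 0.375. DESeq2 called Plat higher (log2 fold change 1.15, adjusted p = 0.0135), the 1 member that it called; it called 1.44% of all rows as higher and 1.28% as lower. Leaving out single libraries gave log2 fold changes from 0.85 to 1.39, all positive and none past the edgeR threshold.

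Plaur (chromosome 7, 24462500 to 24475873, protein-coding) separated the groups by a narrow margin. It stood at 116 CPM in KPC 1 and 82.8 CPM in KPC 2, against 57.2 CPM in wild type 1 and 79.1 CPM in wild type 2. KPC 2 and wild type 2 were close, and their Poisson intervals, 80.7 to 85.0 CPM and 75.4 to 82.8 CPM, overlapped. The mean was 99.2 ± 23.2 CPM in KPC and 68.1 ± 15.5 CPM in wild type (SD, n = 2 each), and the log2 fold change of 0.54 ± 0.27 (SE) had a 95% interval from -0.16 to 1.24 (edgeR adjusted p = 0.631). The difference was therefore within the spread between libraries. Without KPC 1 the log2 fold change was 0.29, and without wild type 1 it was 0.33.

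Serpine2 (chromosome 1, 79794197 to 79858696, protein-coding) varied within each group by most of its range over all libraries. It stood at 56.1 and 104 CPM in KPC and at 64.7 and 123 CPM in wild type, so each group had a low replicate 1 and a high replicate 2. Its mean was 80.1 ± 33.9 CPM in KPC and 93.8 ± 41.2 CPM in wild type (SD, n = 2 each). The log2 fold change was -0.23 ± 0.44 (SE), and its 95% interval, -1.38 to 0.93, leaves room for folds between 0.384 and 1.90 (edgeR adjusted p = 0.925). Its sign turned without KPC 1 (0.16) and without wild type 2 (0.31).

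Serpinb2 (chromosome 1, 107511423 to 107535478, protein-coding) was the member with the lowest level and the one that depended most on a single library. It stood at 11.3 and 11.8 CPM in KPC, against 1.60 CPM in wild type 1 and 16.4 CPM in wild type 2. The wild type values enclosed the KPC values, and wild type 1 rested on 84 counts (exact 95% Poisson interval 1.27 to 1.98 CPM). The log2 fold change was 0.37 ± 1.01 (SE), with a 95% interval from -2.26 to 3.0 (edgeR adjusted p = 0.948). Without wild type 1 it was -0.51, and without wild type 2 it was 2.85. The deposited interval overlaps that of Serpinb10, whose own row held 25 and 42 counts in KPC and 16 and 6 counts in wild type, fewer than the Serpinb2 counts in every library.

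**Figure D2:**
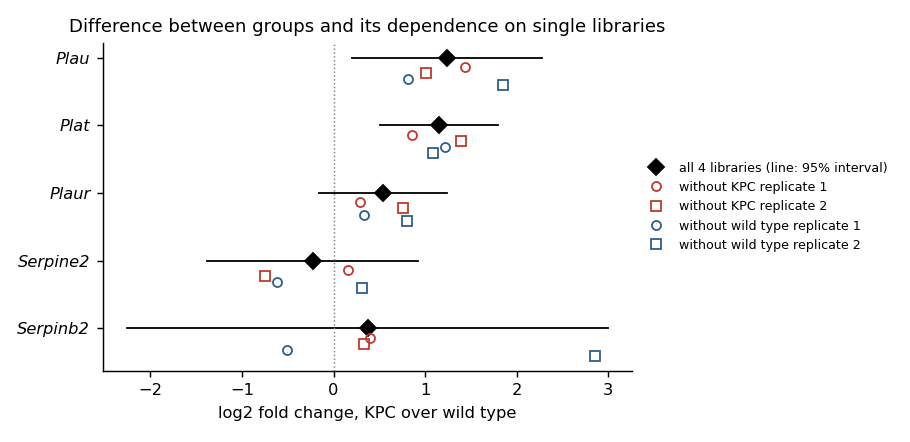
Log2 fold change of KPC over wild type for each gene; black diamonds with lines are the estimate from all 4 libraries with its 95% interval, and open symbols are the estimates without 1 library each. Plau, Plat and Plaur stay above 0 in every estimate, though the 95% interval of Plaur reaches below 0. The estimates of Serpine2 and Serpinb2 lie on both sides of 0.

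To set genes beside each other, CPM was divided by the length of the main annotated transcript of each gene (GENCODE M21). In KPC the order of the levels per kilobase of transcript was Plau (68.6 ± 13.9 CPM per kb), Plaur (65.9 ± 15.4), Serpine2 (36.2 ± 15.3), Plat (14.3 ± 3.82) and Serpinb2 (5.85 ± 0.183) (SD, n = 2 each). In wild type the order was Plaur (45.2 ± 10.3 CPM per kb), Serpine2 (42.4 ± 18.6), Plau (29.1 ± 14.2), Plat (6.46 ± 0.397) and Serpinb2 (4.57 ± 5.32). By the means, Plau thus headed the order in KPC and came after Plaur and Serpine2 in wild type. In KPC 1 alone, Plaur stood above Plau, at 76.8 against 58.7 CPM per kb. Counts appear to include introns, and covered bases beyond the annotated exons differed between genes and libraries. The order is therefore approximate. In KPC the libraries of Plau and Plaur overlapped and the later neighbours did not. In wild type Plaur, Serpine2 and Plau overlapped from neighbour to neighbour, as did Plat and Serpinb2, while Plat lay below Plau in both libraries.

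Ratios of counts inside a library do not depend on the scaling between libraries. The ratio of Serpine2 to Plau counts was 0.408 in KPC 1 and 0.566 in KPC 2, against 1.45 in wild type 1 and 1.34 in wild type 2. Serpine2 counts were thus fewer than Plau counts in both KPC libraries and more in both wild type libraries, although Serpine2 itself overlapped between the groups. The ratio of Plau to Plat followed the replicate number instead, at 3.20 and 6.26 in KPC and at 2.63 and 5.88 in wild type. Plau to Plaur was 1.19 and 2.22 in KPC and 0.782 and 1.16 in wild type, groups that are separate by little. Serpinb2 to Plau was 0.0819 and 0.0641 in KPC, within the wild type values of 0.0357 and 0.179. Of these 4 ratios, the 2 with a serpin were chosen after the values were seen. An exact permutation test of 2 libraries against 2 cannot go below a two-sided p of 0.333, so the ratios were not tested.

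**Figure D3:**
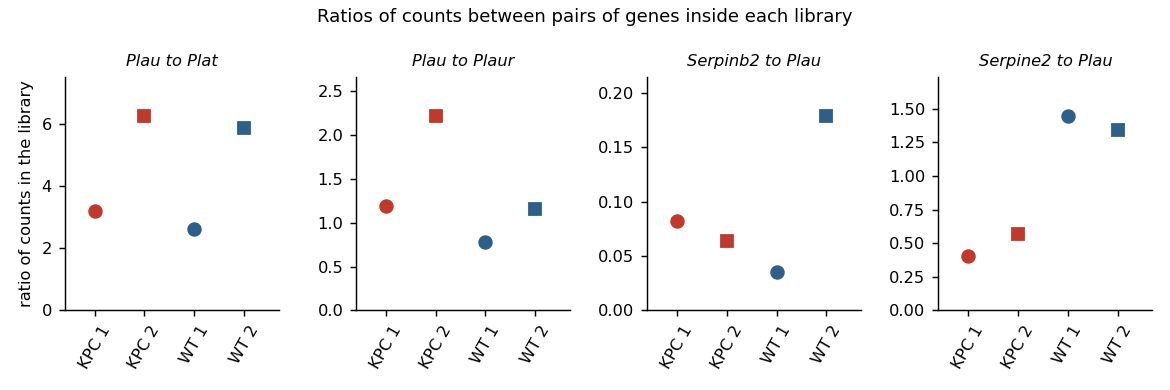
Ratio of deposited counts between 2 genes inside each library, 1 panel a ratio, on linear axes from 0; red points are KPC and blue points wild type (WT), with circles for replicate 1 and squares for replicate 2. Serpine2 to Plau is at most 0.566 in KPC and at least 1.34 in wild type, and Plau to Plat separates the replicate numbers rather than the groups.

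Of 20 other genes of the plasminogen system, 16 were tested, and they did not move together: 7 had a positive and 9 a negative log2 fold change, with a median of -0.03 beside -0.01 over all tested rows. At an unadjusted edgeR p under 0.05 there was 1 higher gene and there were 2 lower genes, beside 4.73% and 3.94% of all rows. After adjustment over all rows 0 passed. This count of 3 fell without KPC 1 or without KPC 2, as did the shares over all rows. Plasminogen itself (Plg) had 7 and 6 counts in KPC and 6 and 7 counts in wild type and was too low to be tested. Serpini1, which encodes neuroserpin, an inhibitor of tissue-type activator, was lower in both KPC libraries, at 2.01 and 2.11 CPM against 4.85 and 4.11 CPM in wild type (log2 fold change -1.13 ± 0.26 (SE), edgeR adjusted p = 0.409, DESeq2 adjusted p = 0.0424). The protease inhibitor gene A2m was at 0.697 and 3.51 CPM in KPC and at 0.114 and 0.268 CPM in wild type, on 6 counts in each wild type library (log2 fold change 3.58, edgeR adjusted p = 0.502, DESeq2 adjusted p = 0.0294). Neither passed the edgeR test.

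Receptors and clearance genes of the system gave a mixed picture. Mrc2, which encodes a collagen-internalising receptor that associates with the urokinase receptor, stood at 67.9 and 125 CPM in KPC and at 215 and 161 CPM in wild type (log2 fold change -0.96, edgeR adjusted p = 0.567). Igf2r, the gene of the mannose 6-phosphate receptor, stood at 28.5 and 24.2 CPM in KPC and at 59.3 and 32.6 CPM in wild type (-0.80, edgeR adjusted p = 0.593). Neither overlapped between the groups, as did not the 20.5% of all tested rows that were lower in both KPC libraries. The plasminogen-binding pair Anxa2 and S100a10 overlapped, with Anxa2 at 1022 and 590 CPM in KPC and at 1012 and 613 CPM in wild type, and S100a10 at 219 and 173 CPM in KPC and at 227 and 109 CPM in wild type. Lrp1, an endocytic receptor that clears activator and serpin complexes, was at 242 and 198 CPM in KPC and at 333 and 208 CPM in wild type, and the plasminogen receptor gene Plgrkt was at 14.3 and 9.94 CPM in KPC and at 13.5 and 11.4 CPM in wild type. The log2 fold changes of these 4 genes ran from -0.30 to 0.22. Counts of Cpb2, a carboxypeptidase gene of this list, covered 423 and 614 bases in KPC and 577 and 433 bases in wild type of an interval of 41264, so its level comes from a small part of the interval.

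Coagulation genes, which share thrombin and serpins with this system, went in both directions, with 5 positive and 6 negative log2 fold changes among 11 tested and a median of -0.35. At an unadjusted edgeR p under 0.05 there were 4 higher and 2 lower, and 0 passed over all rows. These 6 became fewer without KPC 1 or without KPC 2, and the shares over all rows fell as well. With all libraries, 4.73% of all rows were higher and 3.94% lower at that unadjusted threshold. The neighbouring genes F10 and F7 on chromosome 8, which encode coagulation factors, had the smallest wild type levels among the 4 named. F10 stood at 3.47 and 3.36 CPM in KPC against 0.323 and 0.403 CPM in wild type. F7 stood at 4.20 and 8.43 CPM in KPC against 0.0761 and 0.716 CPM in wild type. The log2 fold changes were 3.25 ± 0.32 for F10 and 4.19 ± 1.04 for F7 (SE), with edgeR adjusted p of 0.211 and 0.438 and DESeq2 adjusted p of 3.79e-08 and 0.00135. Thbd, the gene of the thrombin receptor thrombomodulin, was at 65.4 and 79.2 CPM in KPC and at 42.6 and 43.3 CPM in wild type (log2 fold change 0.75, edgeR adjusted p = 0.414). Tfpi2, which encodes an inhibitor of plasmin and other serine proteases, was at 3.14 and 3.54 CPM in KPC and at 6.92 and 17.2 CPM in wild type (-1.85, edgeR adjusted p = 0.463, DESeq2 adjusted p = 0.0228).

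Other serpins had 7 positive and 4 negative log2 fold changes among 11 tested, with a median of 0.14, and 1 had an unadjusted edgeR p under 0.05. That count rose when either wild type library was left out, whereas the shares over all rows rose only without wild type 2. Of all rows 4.73% were higher and 3.94% lower at that threshold with all libraries. The 1 gene was Serpinb5, the gene of maspin and a chromosome 1 neighbour of Serpinb2 in the same clade. It stood at 2.11 and 2.46 CPM in KPC and at 0.133 and 0.268 CPM in wild type. Its log2 fold change was 3.60 ± 0.45 (SE), with an adjusted p of 0.211 in edgeR and 1.34e-05 in DESeq2, on 7 and 6 counts in wild type. Serpinb8 and Serpina3n were high in wild type 1 alone: Serpinb8 stood at 1.56 and 2.15 CPM in KPC and at 11.0 and 1.83 CPM in wild type, and Serpina3n at 1.27 and 4.11 CPM in KPC and at 11.2 and 1.61 CPM in wild type. Serpinb10 was at 0.425 and 0.619 CPM in KPC and at 0.304 and 0.268 CPM in wild type.

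AP-1 and ETS factors, families that bind the enhancer of the urokinase gene, mostly had positive values. Of 13 tested, 11 had a positive log2 fold change, where 48.8% of all rows did, with a median of 0.39. At an unadjusted edgeR p under 0.05 there were 4 higher and 0 lower genes, beside 4.73% and 3.94% of all rows. In both KPC libraries 7 were higher and 0 lower, beside 20.6% and 20.5% of all rows. After adjustment over all rows 0 passed in edgeR or in DESeq2. The ETS genes Etv4 and Ets2 stood at 32.8 and 27.4 CPM in KPC against 12.7 and 20.04 CPM in wild type, and at 43.9 and 33.4 CPM in KPC against 16.5 and 26.9 CPM in wild type. Etv5, another ETS gene, was at 16.7 and 14.2 CPM in KPC and at 10.8 and 10.6 CPM in wild type, and the AP-1 gene Jund at 148 and 125 CPM in KPC and at 101 and 90.0 CPM in wild type. Their log2 fold changes ran from 0.52 to 0.88, with edgeR adjusted p of 0.537 or more. The count of 4 fell without KPC 1, KPC 2 or wild type 1 and rose without wild type 2, as did the shares over all rows. The number with a positive value stayed between 10 and 12 in every such fit.

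**Figure D4:**
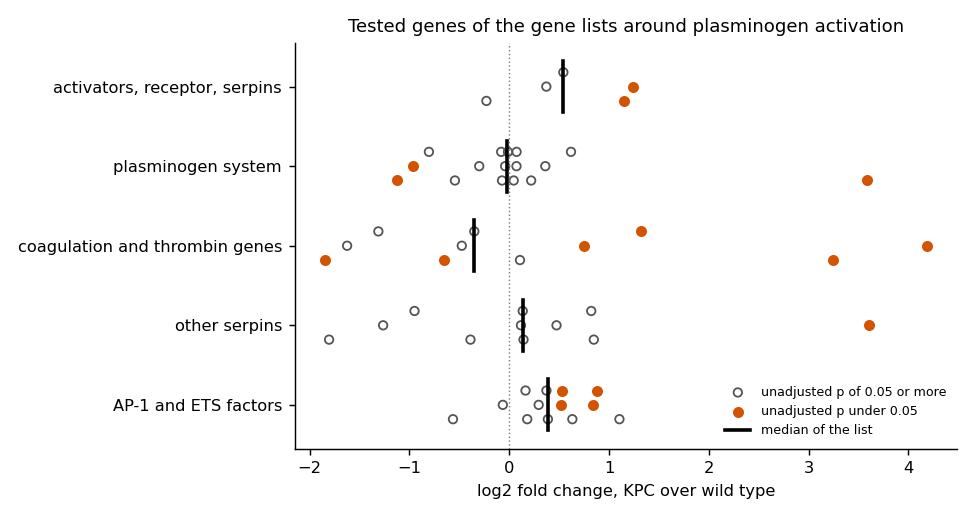
Log2 fold change of KPC over wild type for the tested genes of 5 lists, 1 point a gene, with vertical position inside a list only separating points; filled orange points have an unadjusted edgeR p under 0.05 and black bars are list medians. The AP-1 and ETS factors lie mostly above 0 with a median of 0.39, and the plasminogen system is centred at -0.03.

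Markers of other cell types differed between the same libraries. All 17 macrophage markers were higher in both KPC libraries, with 16 at an unadjusted edgeR p under 0.05. That count was lower without KPC 1 or without KPC 2, as were the shares over all rows. The markers summed to 1300 and 2591 CPM in KPC against 108 and 330 CPM in wild type. Over all tested rows 20.6% were higher in both KPC libraries, and 4.73% were higher at that unadjusted threshold with all libraries. Lyz2, the lysozyme gene of macrophages, stood at 629 and 1416 CPM in KPC and at 6.24 and 132 CPM in wild type. The cathepsin gene Ctss stood at 130 and 214 CPM in KPC and at 28.6 and 44.6 CPM in wild type. Macrophages are known to express Plau, Plaur and Serpinb2, and the part of these cells in the values above was not tested. The macrophage sum was higher in KPC 2 than in KPC 1. Mrc1, named after its values were seen, was the only marker of the list higher in KPC 1, at 31.5 against 26.4 CPM. In bulk libraries, fewer cells of a type and less RNA per cell cannot be told apart.

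Endothelial cells are a known source of tissue-type activator, and their markers were highest in wild type 1. All 14 had a negative log2 fold change, and 2 of them a positive one without wild type 1. In both KPC libraries 11 were lower and 0 higher, beside 20.5% and 20.6% of all rows. At an unadjusted edgeR p under 0.05 there were 9 lower and 0 higher, beside 3.94% and 4.73% of all rows. The 14 markers summed to 43.1 and 52.5 CPM in KPC, 865 CPM in wild type 1 and 69.4 CPM in wild type 2, with Emcn at 1.04 and 2.21 CPM in KPC against 248 and 4.20 CPM in wild type, and Plvap at 1.84 and 4.73 CPM in KPC against 188 and 8.01 CPM in wild type. Plat stood at 43.0 and 29.3 CPM in KPC and at 17.0 and 15.6 CPM in wild type, and the part of endothelial cells in these values was not tested. Epithelial markers summed to 1194 and 456 CPM in KPC and to 33.2 and 439 CPM in wild type. Krt8 stood at 490 and 85.1 CPM in KPC and at 0.399 and 146 CPM in wild type, and Krt18 at 465 and 121 CPM in KPC and at 21.1 and 134 CPM in wild type. Wild type 1 had the lowest epithelial and macrophage sums and the highest endothelial sum. It was also the lowest library for Plau, Plaur and Serpinb2, and no link between these was tested. KPC 1 had more of these keratins than KPC 2, but the epithelial markers did not share an order. Krt7, named after its values were seen, stood at 37.9 and 116 CPM in KPC and at 1.54 and 42.8 CPM in wild type. Of the 13 epithelial markers tested, 12 had a positive log2 fold change and 1 a negative one, where 48.8% of all rows were positive. In both KPC libraries 4 of them were higher and 0 lower, beside 20.6% and 20.5% of all rows. The part of epithelial cells was not tested.

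Endocrine markers summed to 0.527 and 1.30 CPM in KPC and to 1.77 and 944 CPM in wild type, led by Ins2 (229 CPM) and Chgb (223 CPM) in wild type 2; Sst had 0 counts in both KPC libraries and in wild type 1 and 6 in wild type 2. Schwann markers, Ngfr and Cdh19 with the most counts, summed to 4.45 and 5.25 CPM in KPC and to 31.6 and 8.18 CPM in wild type. Mesothelial markers, led by Msln and Upk1b, summed to 108 and 30.5 CPM in KPC and to 18.8 and 25.4 CPM in wild type. Of the 5 tested, 3 had a positive and 2 a negative log2 fold change. Msln stood at 76.7 and 17.2 CPM in KPC and at 0.837 and 8.72 CPM in wild type. Upk1b overlapped, at 17.3 and 2.67 CPM in KPC and at 16.4 and 8.50 CPM in wild type. Pericyte markers summed to 1556 and 678 CPM in KPC and to 286 and 347 CPM in wild type, and their members went both ways. The desmin gene Des stood at 1507 and 620 CPM in KPC and at 5.33 and 281 CPM in wild type, and Mcam at 26.6 and 32.8 CPM in KPC and at 168 and 29.5 CPM in wild type. Cspg4, named after its values were seen, was lower in both KPC libraries, at 14.3 and 15.1 CPM against 102 and 31.7 CPM in wild type (log2 fold change -2.19, edgeR adjusted p = 0.464, DESeq2 adjusted p = 0.00679). The 13 fibroblast markers summed to 14713 and 17157 CPM in KPC and to 16123 and 16698 CPM in wild type. Their members also went both ways, with 7 positive and 6 negative log2 fold changes. Vim stood at 1731 and 1698 CPM in KPC and at 3695 and 2157 CPM in wild type. S100a4 stood at 130 and 289 CPM in KPC and at 1284 and 341 CPM in wild type. Lum and Fap were at 8.05 CPM or less in every library.

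**Figure D5:**
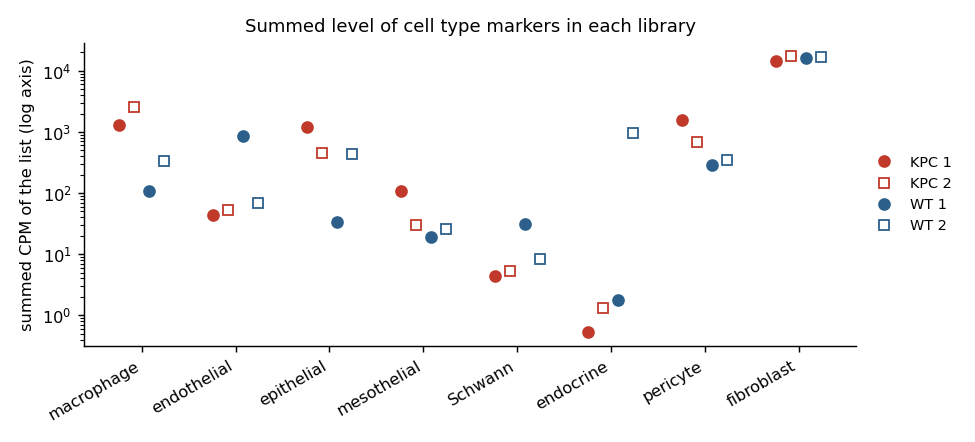
Summed CPM of each cell type marker list in the 4 libraries, on a log axis; red symbols are KPC and blue symbols wild type (WT), filled for replicate 1 and open for replicate 2. The fibroblast sum is nearly level, the macrophage sum is higher in both KPC libraries (1300 and 2591 CPM), and the endothelial and endocrine sums are high in 1 wild type library each (865 and 944 CPM).

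Genes whose pattern over the 4 libraries was most like that of each member were found by the Euclidean distance between centred log2 CPM, among 5660 tested rows with a mean of at least 20 CPM. For Plau they were Glul (distance 0.239) and the macrophage marker Csf1r (0.270), at 27.7 and 45.3 CPM in KPC and at 10.1 and 17.9 CPM in wild type. For Plat they were Apobr (0.132) and Grem1 (0.154), the gene of a secreted BMP antagonist, at 174 and 106 CPM in KPC and at 65.7 and 64.5 CPM in wild type. Plaur was closest to Tuba4a (0.0613) and Tagln2 (0.101). Serpine2 was closest to Cyp1b1 (0.204) and Wdfy1 (0.217), and Serpinb2 to Mt2 (0.195) and the cytokine gene Il11 (0.231), at 23.1 and 26.5 CPM in KPC and at 3.52 and 41.9 CPM in wild type. With 4 libraries, such likeness describes a profile of 4 points.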

How the data were processed

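Single-read sequencing of poly-A RNA was done, per the labels' protocols. TopHat2 2.0.3, bedtools, FastQC 0.10.1 and SAMtools 0.1.18 appear in the submitters' processing notes without roles, with mm10 and GRCm38 as build. The authors deposited 1 table a sample with a raw read count for each gene interval, the bases covered by reads and the covered fraction; that the count is raw was read from whole numbers with different totals. The deposited fraction of covered bases was used only through the covered bases. Counts appear to include introns and reads with several matches, and strand is not stated, so overlapping or similar genes are uncertain; 153 tested rows had the same 4 counts as another.

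Counts were fitted with edgeR 4.0.16 in R 4.3.3 (filterByExpr with a minimum count of 10, TMM, quasi-likelihood test for KPC over wild type, two-sided, Benjamini-Hochberg over 23046 rows at 0.05). For the SE, the unshrunk log2 fold change was divided by √F, and 95% intervals use the moderated degrees of freedom. DESeq2 1.42.0 and limma 3.58.1 (voom) were alternatives. Poisson intervals cover counting error only. The procedure was tested on simulated data. Replicate numbers are not said to pair libraries.

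The members and the 12 other gene lists (4 around plasminogen activation and 8 of cell type markers) were chosen with earlier results of these data known. Up to 4 genes of smallest p were named from each pathway list besides 5 set by symbol, and from each marker list the 2 with the most counts. Adgre1 was matched by its RefSeq synonym. Not every known inhibitor of the plasminogen activators was analysed here. Per-kilobase levels use the first main transcript in GENCODE M21. Figures were drawn with matplotlib 3.10.9.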

Additional observations from a re-analysis of the deposited data

How the results depend on the processing

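Plau, Plat and Plaur kept a positive log2 fold change under RLE, upper quartile or no composition factors, no filter or a filter of 1 CPM in 2 libraries, DESeq2, limma voom, the replicate block, the removal of rows that share all counts, and each library left out. Plat passed the threshold in DESeq2 (1.15, adjusted p = 0.0135) and in no other alternative. DESeq2 called 627 rows (333 higher, 294 lower), against 0 in edgeR, which had 1090 higher and 909 lower rows at an unadjusted p under 0.05; voom called 0. With upper quartile factors that balance turned, to 917 higher and 1087 lower. Leaving out single libraries gave between 0 and 835 called rows (835 without wild type 2, 5 without wild type 1). Across the same removals the log2 fold change ran from 0.81 to 1.85 for Plau, from -0.75 to 0.31 for Serpine2 and from -0.51 to 2.85 for Serpinb2; the cause was not tested beyond the values of the single libraries. Serpinb2 was also moved by voom (1.46) and by the replicate block (1.13), with no call in either. With the replicate number as a block, 0 rows were called, and Plau stood at 1.31 and Plat at 1.12 (adjusted p = 0.290 each). The differences between replicates 1 and 2 correlated at 0.136 between the groups over tested rows, and the labels do not pair the libraries.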

Other observations

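The number of bases covered by reads exceeded the annotated exons in some of the 5 genes. Plau was covered over 3298 and 3747 bases in KPC and over 2705 and 2516 bases in wild type, where GENCODE M21 exons of the gene span 2367 bases. At least 931 and 1380 covered bases in KPC and 338 and 149 in wild type were thus outside annotated exons. Plaur, with 2617 bases of annotated exon, was covered over 5705 and 5399 bases in KPC and over 4499 and 3526 bases in wild type, so that at least 3088 and 2782 bases in KPC and 1882 and 909 in wild type were outside exons. Covered bases grow with depth, and wild type 2 was the shallowest library. Plat and Serpine2 were covered over at most 3001 and 3552 bases, fewer than their annotated exons of 6241 and 8287 bases. Serpinb2, with 2349 bases of annotated exon, was covered over 2534 and 2616 bases in KPC, at least 185 and 267 of them outside exons. In wild type its 1541 and 2045 covered bases were fewer than its exon bases.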
